A study of Rattus norvegicus with 24 samples.

Results

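The cadherin and protocadherin genes of the rat dorsal striatum were examined, 57 genes in all among the 68842 transcript clusters of the array. A gene was a member when the first gene symbol of its transcript cluster was Cdh followed by a number, or began with Pcdh. Each of the 57 symbols had 1 transcript cluster. There were 5 classical type I cadherins, 13 type II cadherins, 5 other cadherins, 4 delta-1 and 5 delta-2 protocadherins, 3 other non-clustered protocadherins, and 1 alpha, 18 beta and 3 gamma protocadherins. The samples came from 24 male Sprague-Dawley rats, with 1 Affymetrix rat transcriptome array (RTA 1.0) for each rat. All rats had jugular catheters, lived in the self-administration chambers for 20 training days and 5 punishment days, and were tested for cue-induced drug seeking at 2 and 30 days of withdrawal. They were euthanized after the second test. The 6 control rats (CT) took saline and got no footshocks. The 6 shock-resistant (SR) and the 6 shock-sensitive (SS) rats took methamphetamine (METH) and got contingent footshocks on part of their rewarded lever presses, and SR rats kept taking the drug while SS rats cut their intake down. The 3 YSR and the 3 YSS rats had saline and got non-contingent shocks whenever their SR or SS partner was shocked. SR and SS rats were told apart by their own behavior under punishment, so they were not assigned to these groups at random.

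Cadherins are calcium-dependent adhesion proteins that hold neighboring cells together. The classical type I and type II cadherins bind catenins inside the cell and take part in sorting neurons into regions and in building synapses. Delta protocadherins are expressed in region-specific patterns in the brain, and several of them bind the actin regulators of the WAVE complex. The alpha, beta and gamma protocadherins lie in a tandem array of genes, from which each neuron expresses a choice of isoforms that lets it tell its own branches from those of other cells. Each beta gene has a promoter of its own, and clustered protocadherin promoters are known for a conserved element with a CGCT core that is bound by the factor CTCF.

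RefSeq promoters, 250 bases before to 50 bases after the gene start in the GRCr8 build, were at hand for 42 of the 57 genes and for 15 of the 18 beta genes. The 10 bases GGTGGCGCTG, which hold CGCT and were picked as the 10-base string shared by the most beta promoters, lay in 13 of the 15 on the strand of the gene. They are shown here because the arrays found the last genes of the beta cluster to vary together. Over both strands (GGTGGCGCTG and its reverse complement CAGCGCCACC, the only motif searched), the string was in 74 of 33469 promoters of all genes (0.221%) and in 0 of the 27 other members with a promoter. Beta promoters resemble each other along their length, so a shared string is a description and not a count of independent sites. Each window below is 30 bases of chromosome 18 on the plus strand, with the string in capitals, in the order of the genes along the cluster.
Pcdhb2, chr18:29279923-29279952: aagaacgcagGGTGGCGCTGcagcctcaga
Pcdhb3, chr18:29285604-29285633: atgaacgcatGGTGGCGCTGttgactaaga
Pcdhb4, chr18:29292211-29292240: aaggacgcttGGTGGCGCTGcaggctaagc
Pcdhb5, chr18:29302404-29302433: atgaacgcagGGTGGCGCTGcaggctaaga
Pcdhb6, chr18:29320152-29320181: tagtacacacGGTGGCGCTGcagtctaagg
Pcdhb8, chr18:29339258-29339287: taggacacacGGTGGCGCTGcagtctaagg
Pcdhb9, chr18:29379248-29379277: aaagacacagGGTGGCGCTGcaggctaaga
Pcdhb10, chr18:29391778-29391807: agggacgcgtGGTGGCGCTGtctactaaga
Pcdhb12, chr18:29413648-29413677: aaggacgcttGGTGGCGCTGcaggctaaga
Pcdhb14, chr18:29431809-29431838: cagaacgcttGGTGGCGCTGcaggctaaga
Pcdhb19, chr18:29478764-29478793: gaagacacatGGTGGCGCTGcaggataatg
Pcdhb20, chr18:29485810-29485839: agagacacatGGTGGCGCTGtaggataaga
Pcdhb21, chr18:29492149-29492178: atagtcacatGGTGGCGCTGcaggatagga

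The string began 52 to 98 bases before the gene start in 11 of these genes, and 229 and 208 bases before it in Pcdhb6 and Pcdhb8. The promoters of Pcdhb1 and Pcdhb15 did not hold these letters in the same window. The bases 3 to 7 after the string were ggata in Pcdhb19, Pcdhb20 and Pcdhb21 and in none of the other 10, of which 5 had ggcta there. This difference was seen only on reading the windows.

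The deposited values are log2 signals, so a difference of 1 is a 2-fold difference in signal. Array medians lay between 5.11 and 5.32, and arrays correlated with each other at 0.988 to 0.9963. In CT rats the bacterial spike bioB had a mean of 9.27, which the study took as the lower limit for an expressed gene, and 16 of the 57 genes (28.1%) were above it, against 9755 of 68842 clusters (14.2%). Nearly all members are in coding clusters, but only 24753 of all clusters are coding. The share above bioB among coding clusters was not counted. All 9 markers of medium spiny neurons, the main neurons of the striatum, were above bioB. Markers of nearby tissue also differed between arrays: the mean of 10 choroid plexus markers was 8.48 to 11.8 in 10 arrays (1 CT, 3 SR, 3 SS, 2 YSR and 1 YSS) and 6.16 to 7.39 in the other 14. In RNA of bulk tissue, fewer cells of a type and less RNA per cell cannot be told apart.

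By subfamily, the genes above bioB in CT rats were 6 of 13 type II cadherins, 1 of 5 type I, 1 of 5 other cadherins, 3 of 4 delta-1 and 2 of 5 delta-2 protocadherins, 1 of 18 beta and 2 of 3 gamma genes. Cdh2, the N-cadherin gene of neurons, had a CT mean of 11.2 ± 0.215 (SD, n = 6). Cdh13, which encodes the GPI-anchored T-cadherin, was at 13.1 ± 0.483 (SD, n = 6). Pcdh17, a delta-2 protocadherin gene known from corticostriatal circuits in mice, was at 11.8 ± 0.247 and Pcdh10, another delta-2 gene, at 11.0 ± 0.238 (SD, n = 6 each). Genes of epithelia and other organs were low in all 24 arrays. Cdh1, the E-cadherin gene of epithelia, ranged from 4.18 to 4.50, and Cdh16 and Cdh17, known from kidney and intestine, from 4.22 to 4.64 and from 3.89 to 4.18. Pcdh19 and Cdh4 had CT means of 8.70 ± 0.458 and 7.96 ± 0.413 (SD, n = 6), below bioB. The largest SDs over the 24 arrays were those of the type II cadherin genes Cdh18 (0.817) and Cdh8 (0.764) and of Pcdh19 (0.691). Alpha and gamma genes share exons at their 3′ ends, and 5 clusters carried several protocadherin symbols. The 1 alpha cluster is called Pcdha4 here by its first symbol only. It has 280 probes and 31 names in the annotation, over chr18:29951054-30215897. Signals of single clustered genes are therefore uncertain, and more so for Pcdhb21 with Pcdhb22, Pcdhb10 with Pcdhb11, and Pcdhga4 with Pcdhgb7, whose clusters overlap.

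In SR rats against CT rats, Pcdh19, an X-linked delta-2 protocadherin gene whose mutation causes an epilepsy in people, had a 2.00-fold signal and Cdh4, the R-cadherin gene, had a 1.61-fold signal. Smaller differences toward higher signal were found for Cdh13, Pcdh10, Cdh22 and Pcdh7, while Cdh11 was lower. Both Pcdh19 and Cdh4 were listed by the study from these same arrays, so their values here are no independent evidence of the direction.

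The study called a gene changed at 1.7-fold or more together with an unadjusted p under 0.05, which is called the criterion here. In SR against CT it was met by 1 of the 57 genes, Pcdh19, against 73 of 68842 clusters (0.106%). At an unadjusted p under 0.05 alone, 7 genes passed, 6 higher and 1 lower in SR rats, where 5.41% of all clusters passed, 1.72% higher and 3.69% lower. No cluster had an adjusted p under 0.05, so none of these differences passed correction over all clusters. Of the 57 genes 34 (59.6%) were higher in SR rats, with a median log2 fold change of 0.01, against 37.8% and a median of -0.04 over all clusters. Nearly all members lie in clusters annotated as coding, and over the 24753 coding clusters alone these values were 47.5% and -0.01, with 2.84% higher and 2.25% lower at an unadjusted p under 0.05.

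In the 6 CT rats, Pcdh19 (chrX:104387346-104493915 on the minus strand in the deposited annotation, which does not name its build) had log2 signals of 9.39, 8.35, 9.02, 8.73, 8.13 and 8.57. In the 6 SR rats it had 8.54, 10.05, 9.67, 9.61, 10.62 and 9.68. Thus all SR rats but 1 exceeded the highest CT rat, and SR replicate 1 lay within the CT range. The log2 fold change was 0.998 (SE 0.331), with an unadjusted p of 0.00628 and an adjusted p of 0.86 in limma, and an exact two-sided permutation p of 0.0173 (n = 6 and 6). The call did not depend on any 1 array, with log2 fold changes of 0.81 to 1.23 as each was left out.

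Cdh4 (chr3:175144495-175279764 on the plus strand) had 8.58, 7.54, 8.37, 7.80, 7.77 and 7.71 in CT rats. In SR rats it had 7.75, 8.82, 8.76, 8.78, 9.10 and 8.71. Again SR replicate 1 was the only SR array that did not exceed all CT arrays. The log2 fold change was 0.69 (SE 0.198), with an unadjusted p of 0.00202, an adjusted p of 0.86 in limma and an exact two-sided permutation p of 0.0216 (n = 6 and 6). This fell short of the 1.7-fold limit, which it passed without CT replicate 1 (0.81), CT replicate 3 (0.77) or SR replicate 1 (0.87). The study's own fold change for Cdh4 in this comparison was above that limit, so the value here differs from the study's. CT replicates 1 and 3, the arrays with the highest Pmch, a hypothalamic gene, were also the CT arrays with the highest Cdh4 and Pcdh19, and without both the log2 fold changes were 0.95 for Cdh4 and 1.25 for Pcdh19. The mean of 5 hypothalamus markers, however, was highest in SR replicates 6 (7.65) and 4 (7.40), above CT replicates 1 (7.26) and 3 (6.85). Oxt, a marker of that list, was 14.52 and 13.70 in those SR arrays and 8.98 and 8.66 in those CT arrays. These SR arrays were kept in that fit. The part of hypothalamic signal in the Pcdh19 and Cdh4 values was not tested.

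**Figure D1:**
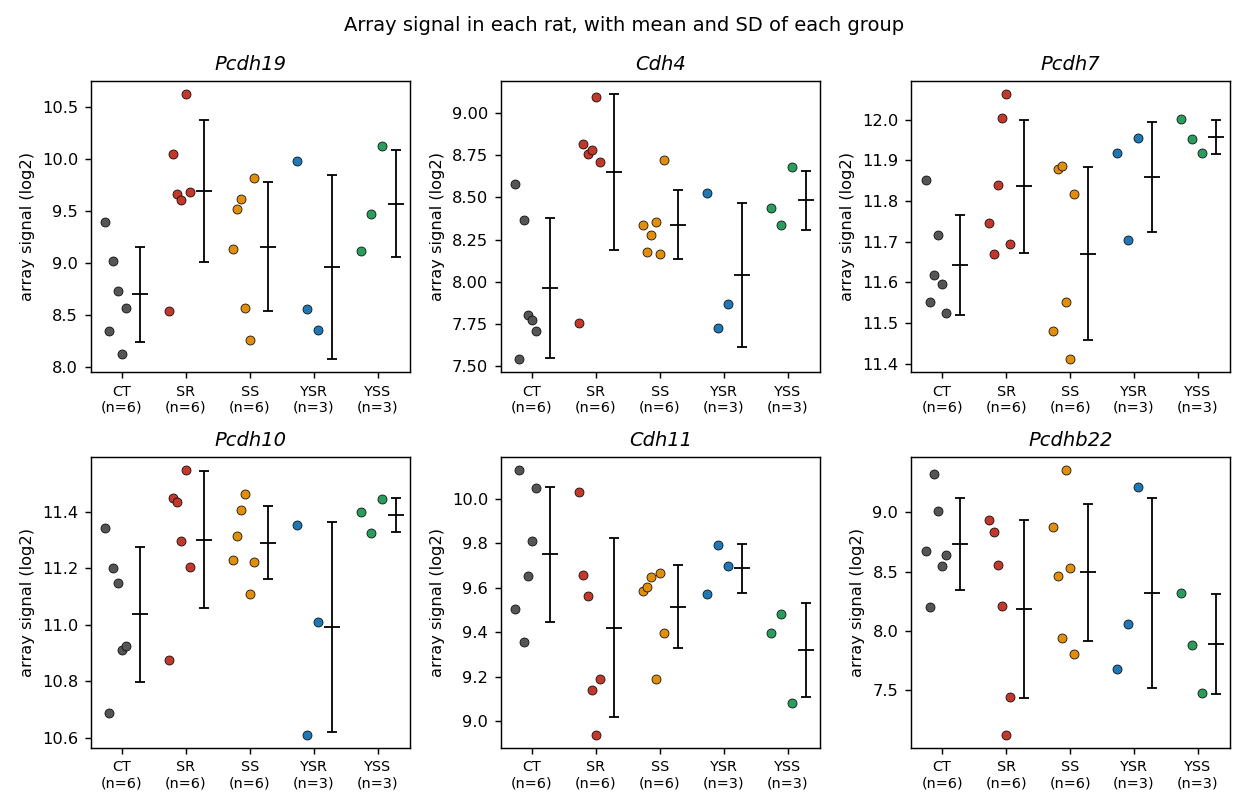
Log2 array signal (vertical axis) of Pcdh19, Cdh4, Pcdh7, Pcdh10, Cdh11 and Pcdhb22 in each of the 24 rats by group (horizontal axis). Points are rats, and the bars beside them are the group mean with its SD. In the Pcdh19 and Cdh4 panels 5 of 6 SR rats lie above the highest CT rat.

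The other members with an unadjusted p under 0.05 in SR against CT changed by less than 1.7-fold. Among the other cadherins, Cdh13 was 13.54 ± 0.222 in SR rats and 13.15 ± 0.483 (SD, n = 6 each) in CT rats, where CT replicate 2 stood apart at 12.25. Cdh22, a type II cadherin gene, differed by 0.21 (SE 0.0832, unadjusted p = 0.0174 in limma), and 3 of 6 SR rats were above all CT rats. The delta protocadherin genes Pcdh10 and Pcdh7 differed by 0.26 (SE 0.124) and 0.19 (SE 0.0932). Cdh11, a type II cadherin gene known from mesenchymal cells and from neurons, was the 1 gene that was lower, by -0.33 (SE 0.156). All 5 delta-2 genes had positive log2 fold changes, of which those of Pcdh10 and Pcdh19 passed at an unadjusted p under 0.05, and their median was 0.30. The beta genes were divided, with 9 of 18 higher, 9 lower and 0 at an unadjusted p under 0.05 in limma.

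Of the 6 markers of ventral or medial striatum, 3 differed in the same comparison. Dlk1, Lypd1 and Calcr exceeded their CT means in SR rats by 0.75, 0.60 and 0.80 on the log2 scale, each at an unadjusted p under 0.05 in limma. Of the other 3, Crym (-0.42) and Stard5 had lower means in SR rats, so that 4 of the 6 were higher and 2 lower, and none of these 3 passed at that level. The mean of the 6 markers was 8.30 ± 0.548 in SR rats (7.66 to 9.15) and 7.93 ± 0.282 in CT rats (7.63 to 8.41), with 2 of the 6 markers above bioB in CT rats. SR replicate 1, which was low for Pcdh19 and Cdh4, also had the lowest mean of these markers among SR rats. The part of this in the Pcdh19 and Cdh4 values was not tested.

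In SS rats against CT rats, 0 of 57 genes met the criterion and 0 had an unadjusted p under 0.05 in limma, where 0.0305% and 5.17% of all clusters did. Pcdh19 was 9.14, 9.52, 9.62, 8.57, 8.26 and 9.82 in the 6 SS rats. Its log2 fold change over CT was 0.46 (SE 0.331, unadjusted p = 0.181 in limma), between the CT and SR means. Cdh4 was 8.34, 8.18, 8.27, 8.35, 8.16 and 8.72, which gave 0.38 (SE 0.198, unadjusted p = 0.0698 in limma) over CT. The smallest p toward higher signal was that of Pcdh10 (0.25, SE 0.124) and toward lower signal that of Pcdh17 (-0.47, SE 0.231).

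SR and SS rats, which differ in how they took the drug under punishment, were not separated by the criterion, with 0 of 57 genes (0.0639% of all clusters). Pcdh19 and Cdh4 were higher in SR than in SS rats by 0.54 (SE 0.331) and 0.31 (SE 0.198), with exact two-sided permutation p-values of 0.182 and 0.165 (n = 6 and 6). At an unadjusted p under 0.05 were 2 genes, 3.51% of the members and 3.56% of all clusters. Pcdh18, a delta-2 gene, was 5.85, 6.39, 5.96, 6.52, 6.96 and 6.90 in SR rats, and 6.07, 6.04, 6.22, 5.84, 6.03 and 6.37 in SS rats. Here 4 of 6 SR rats exceeded all SS rats (log2 fold change 0.34, SE 0.16). Pcdh17 was higher in SR rats by 0.48 (SE 0.231), and SR replicate 2 had the highest value of all 24 arrays at 12.77. The lower gene with the smallest p was Pcdhb8, at -0.39 (SE 0.215). SS and SR rats share the CT rats in their comparisons, so the changes over CT are given side by side only.

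**Figure D2:**
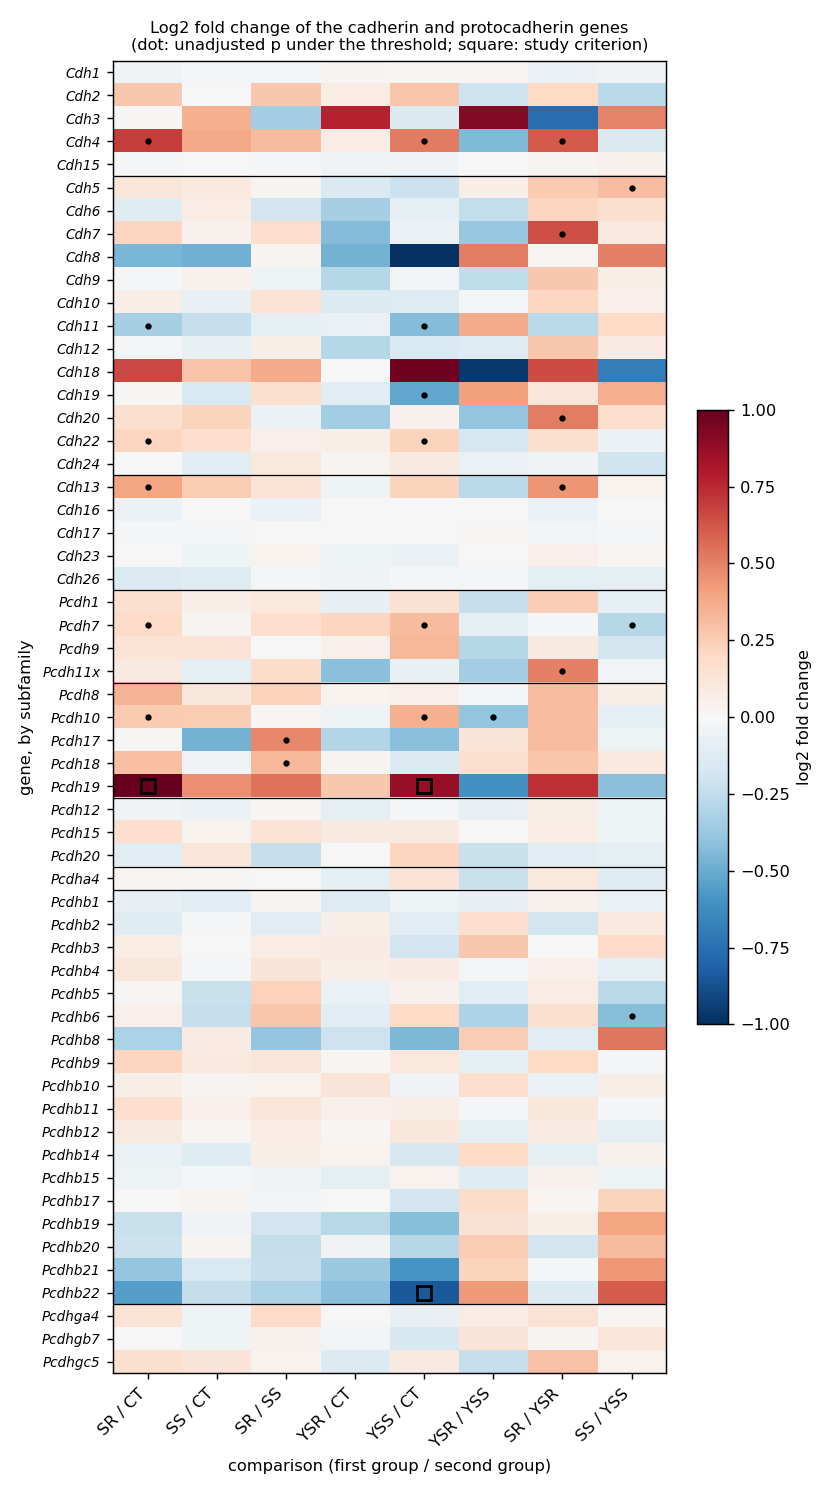
Log2 fold change (color, first group minus second) of the 57 genes, in rows by subfamily, in the 8 comparisons, in columns. Dots mark an unadjusted p under 0.05 and squares the study's criterion, which Pcdh19 met in SR against CT and in YSS against CT and Pcdhb22 in YSS against CT.

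The yoked rats had shocks but no METH. In YSS rats against CT rats, Pcdh19 was higher by 0.87 (SE 0.406) and Pcdhb22, a gene near the 3′ end of the beta cluster, was lower by -0.84 (SE 0.391). These 2 of 57 genes met the criterion, against 0.359% of all clusters. Pcdh19 was 9.12, 9.47 and 10.13 in the 3 YSS rats, of which 2 exceeded all CT rats (exact two-sided permutation p = 0.0476, n = 3 and 6). Without YSS replicate 3 the value for Pcdh19 was 0.60, and without the 10 arrays of high choroid plexus signal it was 0.57, neither of which met the criterion. Its call was lost without any 1 of 6 arrays in all, where the log2 fold change was 0.80 without CT replicate 2, 0.88 without CT replicate 4, 0.76 without CT replicate 5, 0.85 without CT replicate 6 and 0.92 without YSS replicate 2.

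Pcdhb22 was 8.32, 7.88 and 7.48 in YSS rats, and 8.68, 8.20, 9.32, 9.01, 8.55 and 8.64 in CT rats. Of the YSS arrays 2 lay below all CT arrays (exact two-sided permutation p = 0.0476, n = 3 and 6). The call was lost without CT replicate 1 (-0.85), CT replicate 3 (-0.72), CT replicate 4 (-0.79), YSS replicate 2 (-0.83) or YSS replicate 3 (-0.63).

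Pcdh7, a delta-1 gene, was 12.002, 11.954 and 11.918 in YSS rats and 11.85, 11.55, 11.62, 11.72, 11.60 and 11.52 in CT rats. The difference was small, at 0.32 (SE 0.114, unadjusted p = 0.0112 and adjusted p = 0.954 in limma, exact two-sided permutation p = 0.0238, n = 3 and 6). An exact p of 0.0238 is the lowest that 3 against 6 rats can give, and any gene whose 2 groups do not overlap has it. Such genes were not counted over all clusters. In all 8 genes had an unadjusted p under 0.05 (14% of members against 5.16% of all clusters), with Pcdh7, Pcdh10, Cdh22, Cdh4 and Pcdh19 higher (3.12% of all clusters) and Cdh11, Cdh19 and Pcdhb22 lower (2.04%) in YSS rats. Cdh4 was 8.44, 8.34 and 8.68 in YSS rats, 0.52 (SE 0.242) over CT. Cdh19, a type II gene of glia that was picked here after its values were seen, differed by -0.52 (SE 0.238), beside 5 of 5 oligodendrocyte markers that were also lower in YSS rats (median -0.53, 2 of them at an unadjusted p under 0.05 in limma). The part of the oligodendrocyte signal in the Cdh19 value was not tested.

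In YSR rats against CT rats, 0 of 57 genes met the criterion or had an unadjusted p under 0.05 in limma, against 0.142% and 4.13% of all clusters. Pcdh19 was 9.98, 8.56 and 8.36 and Cdh4 8.53, 7.72 and 7.86, so that both were highest in YSR replicate 1. Only the Pcdh19 value of that rat lay outside the CT range. Cdh3, the P-cadherin gene of epithelia, had the smallest p toward higher signal (0.77, SE 0.386) and Pcdh11x, an X-linked delta-1 gene, toward lower signal (-0.42, SE 0.214). Between YSR and YSS rats, groups of 3 in which an exact p cannot go below 0.1, 0 genes met the criterion (0.601% of all clusters) and 1 had an unadjusted p under 0.05 in limma, where 6.05% of all clusters did. This was Pcdh10, lower in YSR rats by -0.40 (SE 0.176).

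METH rats were also set against the yoked rats, whose shocks followed those of their partners but were non-contingent. In SR against YSR, 0 of 57 genes met the criterion (0.439% of all clusters) and 5 (8.77%) had an unadjusted p under 0.05, all higher in SR rats, against 6.41% of all clusters (2.67% higher and 3.74% lower). They were Cdh4, Pcdh11x, Cdh13 and the type II genes Cdh7 and Cdh20, of which the last 2 were picked after their values were seen. Pcdh11x was 9.77, 9.90, 9.46, 9.41, 9.44 and 9.39 in SR rats and 9.18, 8.83 and 9.16 in YSR rats. Its log2 fold change was 0.51 (SE 0.214, exact two-sided permutation p = 0.0238, n = 6 and 3), again at the lowest exact p possible. Cdh4 was higher by 0.61 (SE 0.242) and Pcdh19 by 0.73 (SE 0.406, unadjusted p = 0.0845 in limma).

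In SS against YSS, 0 of 57 genes met the criterion (0.135% of all clusters), and 3 had an unadjusted p under 0.05 (5.26% of members against 5.7% of all clusters). Pcdh7 was lower in SS rats by -0.29 (SE 0.114), with 11.48, 11.88, 11.89, 11.55, 11.41 and 11.82 in SS rats. Its exact two-sided permutation p was 0.0238 (n = 6 and 3), the lowest possible for these group sizes. Cdh5, the VE-cadherin gene of endothelium, was higher by 0.31 (SE 0.14). Pcdhb6, picked after its values were seen, was lower by -0.43 (SE 0.198).

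SR minus YSR less SS minus YSS was then tested in the same fit, and is called the yoked contrast here. METH rats got contingent and yoked rats non-contingent shocks. SR and SS rats also differed in drug intake and were not assigned at random. Drug, shock number and these differences therefore cannot be told apart in this contrast. One gene, Cdh3, met the criterion in this contrast (-1.26, SE 0.545, unadjusted p = 0.0302), against 0.893% of all clusters. It no longer did so without SS replicate 6, YSR replicate 1, YSR replicate 2, YSS replicate 1 or YSS replicate 2, with values of -1.19 to -0.93. Cdh4 was at 0.76 (SE 0.343, unadjusted p = 0.0373), and Pcdhb6 at 0.59 (SE 0.28, unadjusted p = 0.0471). These were 3 of 57 genes with an unadjusted p under 0.05, against 5.16% of all clusters. Pcdh19 was at 1.15 (SE 0.574, unadjusted p = 0.0574), and the adjusted p of all 4 was 0.954 in limma. In a moderated F test over the 5 groups, 2 genes had an unadjusted p under 0.05, Cdh4 (0.0182) and Pcdh7 (0.0406), where 5.03% of all clusters did, and both had an adjusted p of 0.924 in limma.

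The spread between rats of 1 group was also related to markers of regions and cell types. Member signals and marker means were centered on their group means over the 24 arrays, 628 relations were computed, and 71 of them, in 31 of the 57 genes, had an adjusted p under 0.05 by permutation within groups. All relations below rest on the same 24 RNA samples, and marker lists are themselves related to each other.

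Pcdh19 and Cdh4 varied together (Pearson r = 0.81, adjusted permutation p = 0.0014; Spearman rho = 0.77, adjusted p = 0.00393), and r was 0.75 without the 2 farthest arrays. Both also varied with the ventral or medial markers. For Pcdh19 this relation had r = 0.75 (adjusted permutation p = 0.00408), rho = 0.75 (adjusted p = 0.00599) and r = 0.64 without the 2 farthest arrays. For Cdh4 it had r = 0.72 (adjusted permutation p = 0.00332), rho = 0.71 (adjusted p = 0.00599) and r = 0.62 without them. Pcdh19 was inversely related to the medium spiny neuron markers (r = -0.64, adjusted permutation p = 0.0382, rho = -0.68, r = -0.73 without the 2 farthest arrays). With the cortex markers Pcdh19 had r = 0.60 (adjusted permutation p = 0.0521 over all relations). Adjusted over the 9 planned relations of Pcdh19 and Cdh4 alone, this p was 0.0136 (rho = 0.63, adjusted p = 0.00979). Cdh4 had r = 0.34 with the cortex markers (adjusted permutation p = 0.195 over the same 9). The gene closest to the ventral or medial markers was Pcdh18 (r = 0.89, adjusted permutation p = 0.00105, rho = 0.86, r = 0.82 without the 2 farthest arrays).

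**Figure D3:**
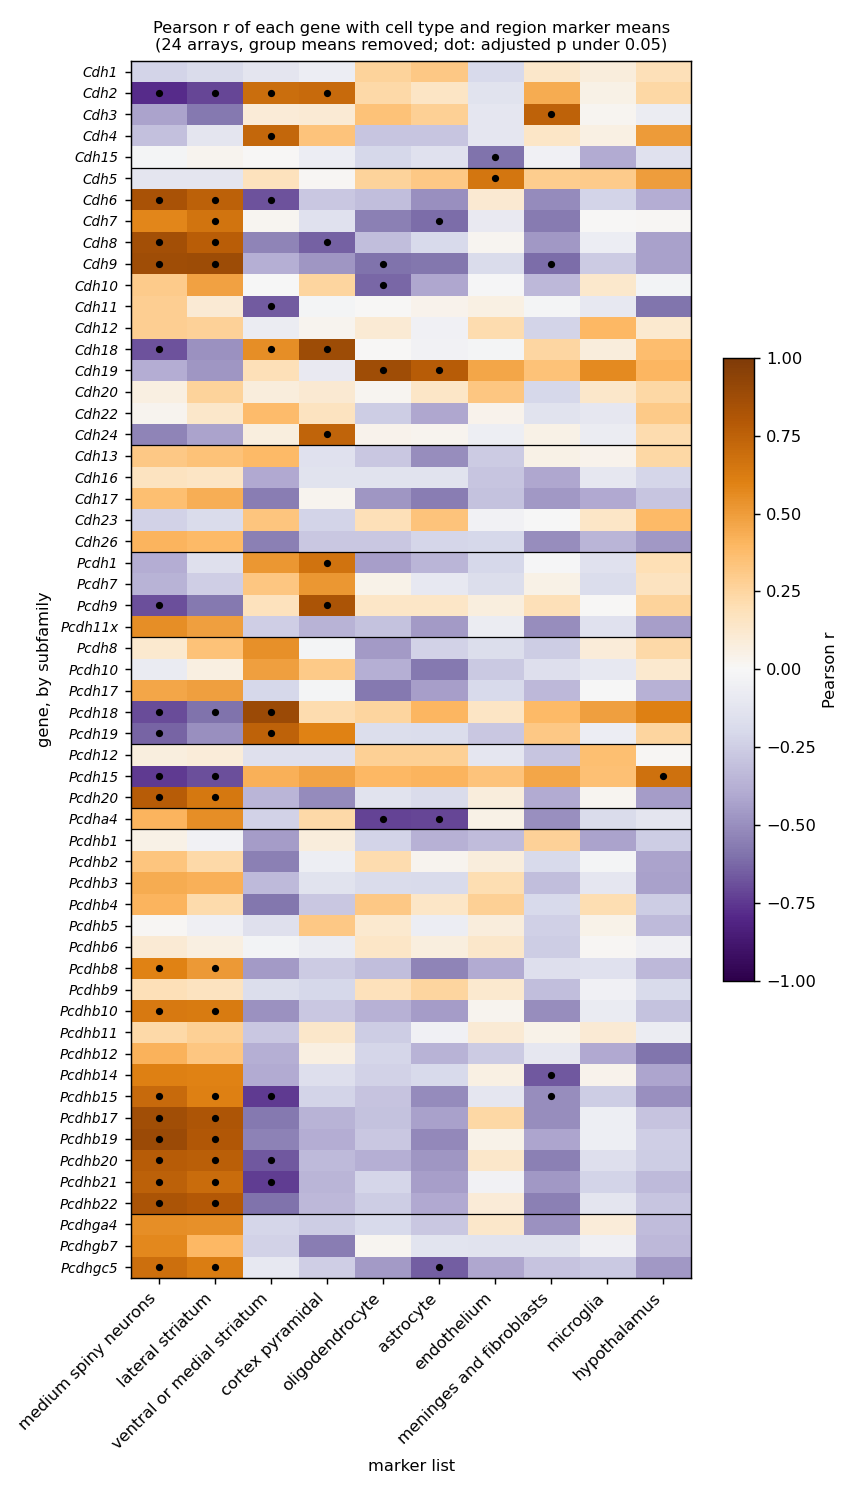
Pearson r (color) of each of the 57 genes, in rows by subfamily, with the means of 10 marker lists, in columns, over 24 arrays with group means removed. Dots mark adjusted permutation p-values under 0.05, which were most frequent for medium spiny neurons (19 genes) and lateral striatum (17 genes).

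Of all lists, the medium spiny neuron markers had the most relations, 13 positive and 6 negative. The positive ones included the type II cadherin genes Cdh9 (r = 0.87), Cdh8 (r = 0.86) and Cdh6 (r = 0.83), the beta genes Pcdhb19 (r = 0.89) and Pcdhb17 (r = 0.87), and Pcdh20 (r = 0.78). The negative ones were Cdh2 (r = -0.78), Pcdh15 (r = -0.75), Pcdh18 (r = -0.70), Pcdh9 (r = -0.69), Cdh18 (r = -0.69) and Pcdh19. Lateral striatum markers, Cnr1 and Gpr155, related to 17 genes, 14 positively, with Cdh9 first (r = 0.88, rho = 0.83). The cortex markers varied with Cdh18 (r = 0.88, adjusted permutation p = 0.00364, rho = 0.86), Pcdh9 (r = 0.82), Cdh24 (r = 0.73), Cdh2 (r = 0.71) and Pcdh1 (r = 0.67), and were inverse to Cdh8 (r = -0.64). Cdh6, Cdh9, Cdh15, Cdh24, Pcdh1, Pcdh9, Pcdh15, Pcdhb17 and Pcdhb19 were named here after their values were seen.

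Cdh18 and Cdh8, the 2 members with the largest spread, thus ran in opposite directions along the cortex markers. Cdh18 was 9.74, 9.35, 9.58, 9.37, 7.74 and 7.31 in CT rats, with CT replicates 5 and 6 far below the others. Cdh8 was 10.66, 10.50, 9.96, 10.65, 11.49 and 11.36 in the same rats, with these 2 replicates highest. In YSS rats against CT rats Cdh18 differed by 0.98 (SE 0.526, unadjusted p = 0.0766) and Cdh8 by -0.99 (SE 0.502, unadjusted p = 0.0616 in limma), beside 8 of 9 cortex markers with higher means in YSS rats (median 1.11). The part of the cortex signal in these values was not tested.

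Cdh19, Cdh5 and Cdh3, known from glia, endothelium and epithelia, varied with markers of such cells. Cdh19 had r = 0.87 with the oligodendrocyte markers (adjusted permutation p = 0.00105, rho = 0.90) and r = 0.77 with the astrocyte markers. Cdh5 had r = 0.65 with the endothelium markers (adjusted permutation p = 0.0479), and r = 0.51 without the 2 farthest arrays. Its rho of 0.60 had an adjusted permutation p of 0.0596, so this relation passed by Pearson r only. Cdh3 was read within the 2 sets of arrays that choroid plexus signal separates, on values not centered on group means. Where that signal was high it was 5.22 to 6.75 and had r = 0.99 with the choroid plexus markers (n = 10, unadjusted permutation p = 2e-05 and adjusted p = 0.00012 over 6 relations, rho = 0.99, r = 0.98 without the 2 farthest arrays). In the other arrays it was 4.91 to 5.25, with r = 0.24 (n = 14, permutation p = 0.415). Read in the same way, Pcdh19 and Cdh4 had r of -0.68 and -0.72 where that signal was high (adjusted permutation p = 0.0486 each). These were -0.34 and -0.49 without the 2 farthest arrays. In the other arrays r was -0.50 for Pcdh19 and -0.42 for Cdh4. Over all 24 arrays with group means removed, r was 0.27 for Pcdh19 and -0.13 for Cdh4. Their adjusted permutation p-values over the 9 planned relations were 0.356 and 0.597. Without the 2 farthest arrays these r were 0.55 and 0.17. The sign for Pcdh19 thus differed between the 2 readings. High choroid plexus signal was found in 2 of 3 YSR and 1 of 3 YSS arrays. Without the 10 arrays of high signal the Cdh3 value in the yoked contrast given above was -0.10 (with 1 YSR rat left) in place of -1.26.

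**Figure D4:**
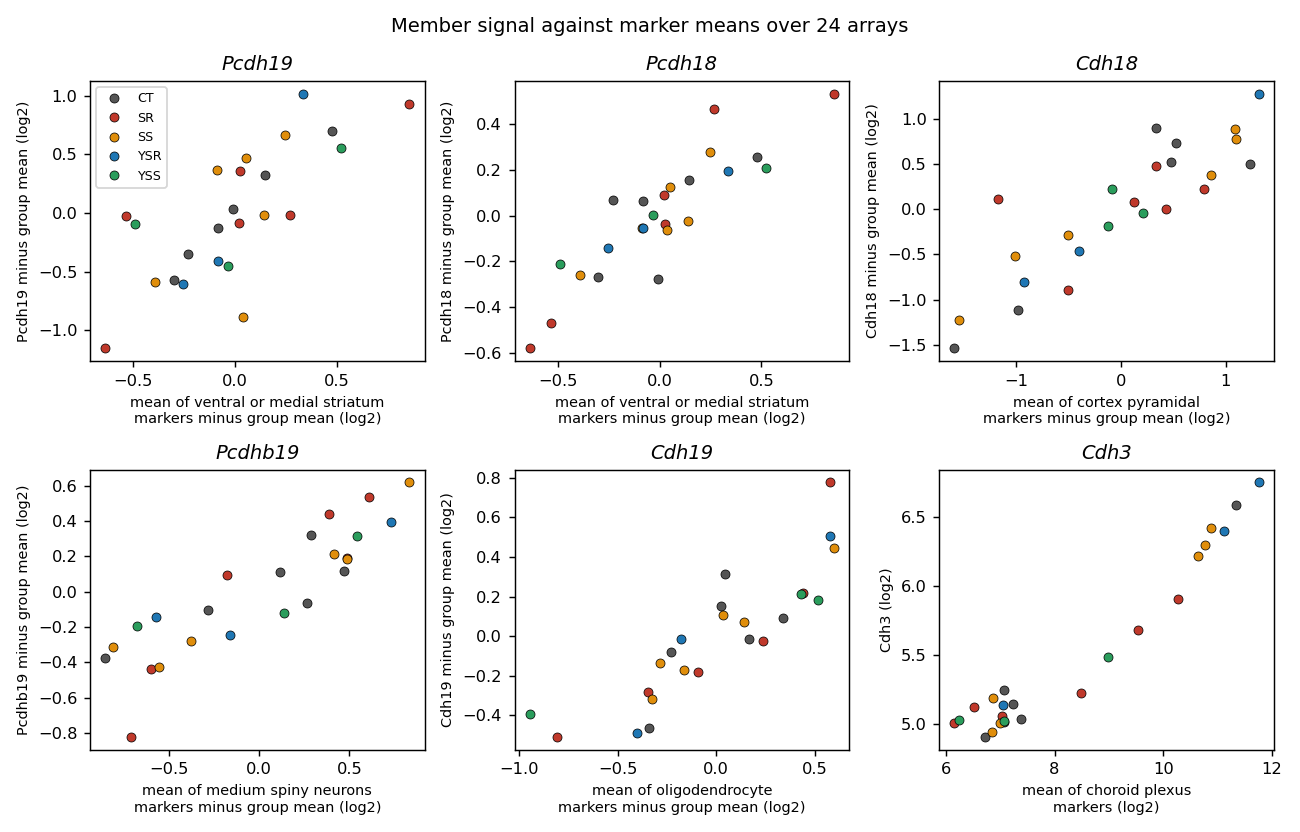
Log2 signal of 6 genes (vertical axes) against the mean log2 signal of a marker list (horizontal axes) in 24 arrays, colored by group. All values are centered on their group means except those of Cdh3, which stays at 4.91 to 5.25 in the 14 arrays of low choroid plexus signal and reaches 6.75 in the others.

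The 18 beta genes lie in a row on chromosome 18, and their behavior changed along it. The last 6, Pcdhb15, Pcdhb17, Pcdhb19, Pcdhb20, Pcdhb21 and Pcdhb22, varied together within groups, with pairwise r of 0.76 to 0.91 (median 0.84 over 15 pairs). Among the other 12 the pairwise r ran from -0.55 to 0.65 (median 0.26 over 66 pairs), and between the 2 sets from -0.06 to 0.73 (median 0.42 over 72 pairs). The 6 genes were set apart after this pattern was seen, so no test was made of it, and probes of near-identical genes may bind the same RNA. With the medium spiny neuron markers these 6 genes had r of 0.71 (Pcdhb15), 0.87 (Pcdhb17), 0.89 (Pcdhb19), 0.78 (Pcdhb20), 0.75 (Pcdhb21) and 0.82 (Pcdhb22).

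Pcdhb19 was the only beta gene above bioB in CT rats, at 9.65 ± 0.238 (SD, n = 6), and ranged from 8.61 to 10.23 over the 24 arrays. Pcdhb22 had the largest spread among the beta genes (SD 0.612 over 24 arrays), and SR rats held both its lowest values, 7.13 in SR replicate 5 and 7.44 in SR replicate 6, and values inside the CT range. The string in capitals above was found in the promoters of Pcdhb19, Pcdhb20 and Pcdhb21, and equally in those of 10 beta genes outside the set of 6, so its presence did not separate the sets. The first beta gene, Pcdhb1, stood at 3.52 to 4.16 in all arrays.

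**Figure D5:**
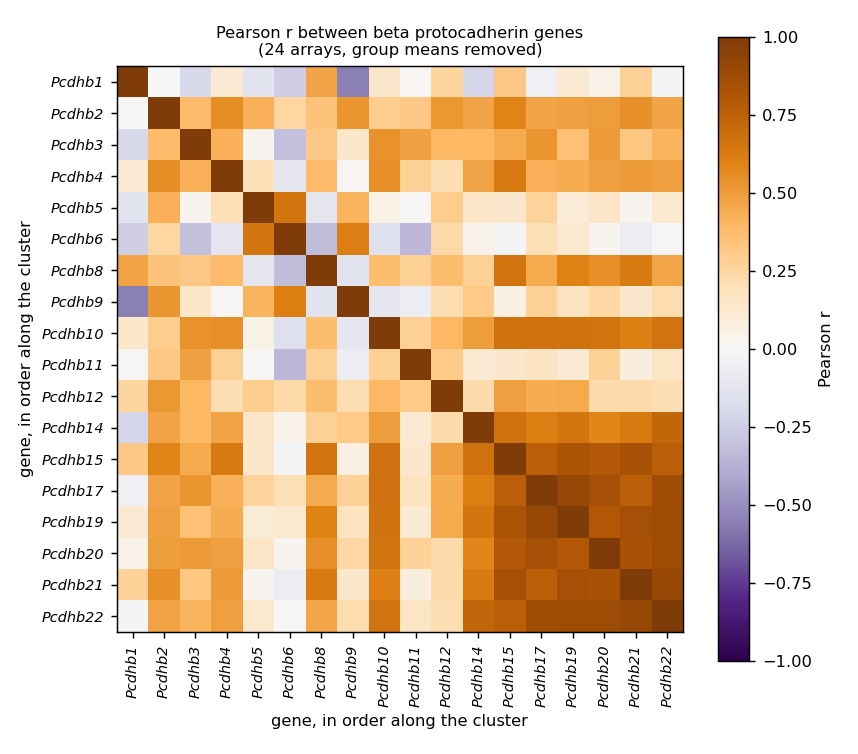
Pearson r (color) between each pair of the 18 beta protocadherin genes over 24 arrays with group means removed, with genes in order along the cluster on both axes. The last 6 genes form a block with r of 0.76 to 0.91.

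Genes that work with cadherins were also examined. Of 51 measured genes of the catenins, the WAVE complex, cadherin-cleaving proteases, other members of the cadherin superfamily and regulators of the clustered protocadherin genes, 0 met the criterion in any of the 8 comparisons in limma. In SR against CT 2 of 51 (3.92%) had an unadjusted p under 0.05, below the 5.41% of all clusters. They were the giant cadherin gene Fat4 (0.55, SE 0.208) and the calsyntenin gene Clstn3 (0.44, SE 0.204), both higher. In YSS against CT 4 of 51 (7.84%, against 5.16% of all clusters) were lower and 0 higher at that level. These were the catenin genes Ctnna1 (-0.34, SE 0.131) and Ctnnd2 (-0.41, SE 0.168), the protease gene Adam17 (-0.30, SE 0.139) and Rad21, a cohesin gene (-0.24, SE 0.11). The count was largest in YSR against YSS, with 6 of 51 (11.8%, against 6.05% of all clusters). Here Ctnna1 (0.38, SE 0.151), the cadherin superfamily genes Celsr1 (0.63, SE 0.29) and Dsg2 (0.29, SE 0.119) and the cohesin gene Stag2 (0.33, SE 0.133) were higher in YSR rats, and Brk1 of the WAVE complex (-0.28, SE 0.124) and Fat2 (-0.19, SE 0.077) were lower. In SR against YSR 3 were higher and 1 lower (7.84%, against 6.41%), and in the other 4 comparisons 0 or 1 of 51 passed. No partner gene had an adjusted p under 0.05.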

How the data were processed

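RNA of individual dorsal striatal samples was hybridized to 1 array per rat. The authors summarized the arrays with the Affymetrix Expression Console (version and algorithm not given in the sources used here), and the deposited log2 signals cover 70580 rows, of which 1738 control rows were left out. Fold changes and p-values of the authors' own comparisons, also deposited, were not used. Symbols and coordinates are those of the deposited annotation.

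A cell-means model of the 5 groups was fitted to all 68842 clusters with limma 3.58.1 (R 4.3.3; 19 residual and 3.787 prior degrees of freedom), rats unpaired, with Benjamini-Hochberg adjustment over all clusters in each of 8 comparisons. Exact two-sided permutation tests compared the arrays of 2 groups. Relations to marker means used 100000 permutations within groups, adjusted over 628 relations or, where said, over 9 planned ones, in Python 3.11.15 with scipy 1.17.1. Relations within the 2 sets of choroid plexus arrays used values that were not centered. Their arrays were permuted regardless of group, with adjustment over 6 relations. Precision is limited by 3 to 6 rats per group. The fit was also run on simulated data of 5000 clusters with 200 changed by 1 log2 unit. At an adjusted p under 0.05, SR against CT (6 and 6 arrays) found 192 with 4 false calls. YSR against YSS (3 and 3) found 176 with 8 false calls. These counts are no measure of power for the members. In the real arrays Pcdh19, at a log2 fold change of 0.998 in SR against CT, had an adjusted p of 0.86 in limma.

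The members and lists were chosen with earlier results of these data known. Genes named in the text were Pcdh19, Cdh4, those meeting the criterion, those with the smallest p in each direction of each comparison or in the F test of each subfamily, the 3 with the largest SD, and 9 well known genes. All other members named were chosen after their values were seen. Alternatives were quantile normalization, median centering, expressed clusters only, fits of 2 groups, no moderation, an intensity trend, robust variances, other thresholds, a replicate block and leaving out arrays. Labels do not say that replicate numbers pair rats, so the numbers were not used as pairs. Promoter windows come from RefSeq (GRCr8).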

Additional observations from a re-analysis of the deposited data

Results flagged for a closer look

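In groups of 6 rats, single arrays stood far from the others of their group in 6 of 66 groups examined, for 22 named genes in 3 groups, where chance gives about 1 in 20. Cdh13 was 12.2 in CT replicate 2, against 13.2 to 13.7 in the other CT rats. Cdh18 was 8.62 in SR replicate 1, against 9.51 to 9.98. Cdh2 was 10.8 in CT replicate 5, against 11.2 to 11.4. Cdh3 was 6.59 in CT replicate 6, the CT array with high choroid plexus signal, against 4.91 to 5.25. Cdh4 was 7.75 in SR replicate 1, against 8.71 to 9.10, and 8.73 in SS replicate 6, against 8.16 to 8.35.

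In the yoked contrast, an unadjusted p under 0.05 in limma was found for Cdh4 (0.76 on the log2 scale, unadjusted p = 0.0373), Pcdhb6 (0.59, unadjusted p = 0.0471) and Cdh3 (-1.26, unadjusted p = 0.0302). None of them passed adjustment (adjusted p = 0.954 for each), so no difference was established. These 3 of 57 genes are 5.26% of the members, where 5.16% of all clusters had an unadjusted p under 0.05 in this contrast. Without the 10 arrays of high choroid plexus signal the Cdh3 value was -0.10 (with 1 YSR rat left).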

How the results depend on the processing

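No named difference changed direction under the alternatives run. Counts of the 57 genes at the criterion were low and moved with the setting. In SR against CT the count of 1 became 2 at 1.5-fold, 0 at 2-fold and 0 at an adjusted p under 0.05. Without the CT arrays of high Pmch, left out after seeing the data, it was 3, and over all clusters the count went from 73 to 456. Among expressed clusters only it was 0, but Pcdh19 is below bioB and was left out before that fit. In YSS against CT the count of 2 became 1 with median centering, 0 among expressed clusters, 1 with the replicate block, 0 without the choroid plexus arrays, 4 without the Pmch arrays, 0 at 2-fold and 0 at an adjusted p under 0.05. Where the count was 0, it became 1 with the replicate block in YSR against CT (from 98 to 134 over all clusters). In YSR against YSS it became 1 with median centering, 1 in a fit of 2 groups and 1 with the block. Over all clusters 414 became 437, 449 and 398 in these settings. In SR against YSR it became 1 with the block (from 302 to 294 over all clusters) and 2 at 1.5-fold. The yoked contrast went from 1 to 2 with quantile normalization, where the count over all clusters went from 615 to 575. It was 3 at 1.5-fold, 0 at an adjusted p under 0.05 and 0 among expressed clusters, which leave out Cdh3. The F test count of 2 became 1 with median centering, 1 with the intensity trend, 7 without the Pmch arrays and 0 at an adjusted p under 0.05. Among expressed clusters, which leave out Cdh4, it was 1. Counts over all clusters are not given here for the F test or the other fold limits. Without the arrays of high choroid plexus signal, also left out after seeing the data, 8 of these counts moved, that of the yoked contrast among them, and 2 did not. In that fit YSR has 1 rat, which is assumed to vary like the other groups, so its counts are not given. The causes were not tested.

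With each array left out in turn, counts ran from 1 to 2 in SR against CT (2 without CT replicate 1, CT replicate 3 or SR replicate 1). They ran from 0 to 1 in SR against SS, 0 to 1 in YSR against CT, 0 to 3 in YSS against CT and 0 to 2 in YSR against YSS. The range was 0 to 3 in SR against YSR, 0 to 3 in the yoked contrast and 1 to 6 in the F test. Counts stayed at 0 in SS against CT and SS against YSS. Over all clusters the counts moved too. They went from 73 to 289 in SR against CT without CT replicate 1, and from 302 to 611 in SR against YSR without YSR replicate 1. In YSR against YSS they went from 414 to 135 without YSR replicate 2.

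Same-numbered arrays did not deviate together (r of -0.43 to 0.38 over 39 pairs), and the replicate block left the SR against CT count at 1. Signal over background limits the 41 genes that were not above bioB in CT rats.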

Other observations

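Some further members varied with glial markers within groups, over 24 arrays with group means removed. The alpha cluster listed as Pcdha4 was inverse to the oligodendrocyte markers (r = -0.72, adjusted permutation p = 0.0123, rho = -0.71, r = -0.66 without the 2 farthest arrays). It was also inverse to the astrocyte markers (r = -0.72, adjusted permutation p = 0.0166). This cluster carries 31 names, so its signal cannot be assigned to Pcdha4 alone. Cdh10, a type II cadherin gene, was also inverse to the oligodendrocyte markers (r = -0.63, adjusted permutation p = 0.047), as was Cdh9 (r = -0.60, adjusted permutation p = 0.0421). None of the 57 genes was related to the microglia markers at an adjusted p under 0.05.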
